A study of Mus musculus with 12 samples.

Results

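The aorta is built of smooth muscle, yet every aorta of this series also held RNA of striated skeletal muscle genes. The genes described here are 34 skeletal muscle genes, chosen by symbol from a table of 25284 genes. The list holds 10 genes of the fast fibre sarcomere, 4 of the slow fibre sarcomere, 6 of the thin filament, titin and the Z-disc, 6 of calcium handling and excitation, 5 of energy metabolism and 3 of regulation and upkeep of the sarcomere. All 34 had a row in the table, and 33 passed the filter on low counts, the exception being Tnni1, which encodes slow troponin I.

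RNA was sequenced from the thoracic aorta of 12 male ApoE-/- mice at 18 weeks of age, all fed a high fat, cholesterol enriched diet. The 6 AZ6983 mice (A1 to A6) had subcutaneous osmotic minipumps that for 8 weeks delivered AZ6983, an agonist of α7nAChR, in a daily dose of 50 µmol per kg. The 6 control mice (C1 to C6) had pumps with vehicle, cyclodextrin in saline, for the same 8 weeks. ApoE-/- mice lack apolipoprotein E, a ligand for clearance of lipoproteins from blood, and develop atherosclerosis. Both groups carried the deletion and ate the diet, so no group here shows the genes without them. Replicates are separate mice.

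Skeletal muscle contracts when calcium, released through the ryanodine receptor, binds troponin and frees the actin filament for myosin. Fast and slow fibres use different genes for most of these proteins, so that the isoforms present mark the fibre type. Titin spans the sarcomere and is held at the Z-disc by a small protein, titin-cap, encoded by Tcap.

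The libraries held 23810036 to 35864666 counts on genes. Reads that matched no counted feature, below called reads with no feature, were 8.02% to 12.7% of the table's reads in control mice. In AZ6983 mice they were 11.2% to 14.9%. Whether they lay outside genes is not given. The smooth muscle tissue of the label was present in every mouse, with 12 marker genes summing to 15328 to 20408 CPM among controls and 12111 to 20378 CPM among AZ6983 mice. CPM are a gene's counts scaled to a common library size. In a bulk tissue fewer muscle fibres and less RNA per fibre cannot be told apart. Levels below are after TMM normalization, a further scaling that makes libraries comparable. Levels of different genes are compared only per kilobase of exon, while shares of counts are not scaled to exon length.

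Acta1, the skeletal α-actin of the thin filament (chr8:123891769-123894751, minus strand, GRCm38), is the gene to which the other members were compared. In control mice C1 to C6 its level was 4.92, 124, 10.2, 0.446, 39.1 and 2.41 CPM. In AZ6983 mice A1 to A6 it was 18.0, 77.2, 3.61, 4.58, 104 and 131 CPM. Mice C2, A2, A5 and A6 were high, C4 was lowest with 12 counts, and the groups overlapped over most of their range. The highest level was 294-fold the lowest.

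Acta1 and 3 other members whose promoters bear on the contrast between genes that varied with Acta1 and genes that did not are shown by their sequence, from RefSeq on GRCm38.p6. Atp2a1 encodes the calcium pump of fast fibres and varied with Acta1. Casq1, which encodes the calcium store protein calsequestrin, and Pygm, which encodes muscle glycogen phosphorylase, did not. Each sequence runs 5′ to 3′ from 250 bases before the start site to 50 after it, and lies at chr8:123894726-123895025 (Acta1, minus strand), chr7:126463024-126463323 (Atp2a1, minus strand), chr1:172219846-172220145 (Casq1, minus strand) and chr19:6384158-6384457 (Pygm, plus strand). Capitals mark matches to the motifs searched.
Acta1: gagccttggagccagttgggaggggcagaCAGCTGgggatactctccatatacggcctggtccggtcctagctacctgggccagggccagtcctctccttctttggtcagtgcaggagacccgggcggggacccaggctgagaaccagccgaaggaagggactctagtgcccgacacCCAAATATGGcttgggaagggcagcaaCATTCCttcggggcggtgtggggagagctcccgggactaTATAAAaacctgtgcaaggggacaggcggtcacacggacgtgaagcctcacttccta
Atp2a1: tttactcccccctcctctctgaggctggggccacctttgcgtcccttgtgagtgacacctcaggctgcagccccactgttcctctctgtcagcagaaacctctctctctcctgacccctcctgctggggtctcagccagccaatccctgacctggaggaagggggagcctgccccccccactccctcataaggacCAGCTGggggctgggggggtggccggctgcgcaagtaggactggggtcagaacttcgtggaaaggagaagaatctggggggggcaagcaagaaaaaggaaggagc
Casq1: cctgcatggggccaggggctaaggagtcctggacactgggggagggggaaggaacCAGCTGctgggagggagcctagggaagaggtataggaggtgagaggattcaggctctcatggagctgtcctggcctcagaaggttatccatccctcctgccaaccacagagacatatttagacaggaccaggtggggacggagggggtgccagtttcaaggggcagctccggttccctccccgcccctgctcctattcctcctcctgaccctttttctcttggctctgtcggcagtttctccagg
Pygm: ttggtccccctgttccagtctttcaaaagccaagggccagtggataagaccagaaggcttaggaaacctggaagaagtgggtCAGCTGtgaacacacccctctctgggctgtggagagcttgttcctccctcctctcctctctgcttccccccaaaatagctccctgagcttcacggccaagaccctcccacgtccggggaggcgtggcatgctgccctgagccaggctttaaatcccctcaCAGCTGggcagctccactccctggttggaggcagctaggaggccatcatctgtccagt

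The motifs, searched on both strands, were the E-box form CAGCTG bound by myogenic factors, the MCAT element CATTCC, the letters TATAAA, the CArG box of serum response factor and the MEF2 box. The Acta1 promoter held 4 of these 5, in the order E-box, CArG box, MCAT element and TATAAA. The promoters of Atp2a1 and Casq1 held 1 E-box each and that of Pygm held 2, so this E-box was found in genes of either kind. Of the 34 members 25 had a promoter entry, and 15 of these held the E-box form, against 16.3% of 32851 mouse promoters. The MCAT element was in 10 of the 25, against 14.7% of all promoters, and the MEF2 box was in 6, against 3.19%. The letters TATAAA were in 6, against 13.6%, and the CArG box was in 2, Acta1 and Myh4, against 1.63%. Among the 19 genes with an entry that are Acta1 itself or follow it by the measure given next, 10 held the E-box and 10 held MCAT. Among the 5 that did not (Mb, Klhl41, Tnnt1, Pygm and Casq1), 4 held the E-box and 0 held MCAT. Tcap and Mylk2 had no promoter entry. Mb and Klhl41 missed the threshold narrowly, with r of 0.798 and 0.78, so the 5 are not all genes unrelated to Acta1. These are matches of letters in a fixed window.

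Which members follow Acta1 was measured by Pearson's r of log2 CPM over the 12 mice. An r of at least 0.8 was reached by 25 of the other 32 members tested, against 0.505% of all genes tested. The 25 had r of 0.88 to 0.99, Spearman's rho of 0.84 to 0.99, and at least 0.91 for r without the 2 mice farthest from the median of Acta1, C4 and A6. Within the groups r was at least 0.84 among the 6 controls and at least 0.86 among the 6 AZ6983 mice. For these 25 the permutation p, adjusted over the 32 members, was at most 0.000499. They were picked by r over the same 12 mice, so this p is no separate support. Of all 32 members 28 had an adjusted permutation p under 0.10 for Pearson's r. Followers were 10 of 10 fast genes, 2 of 3 slow genes tested, 4 of 5 thin filament and Z-disc genes, 5 of 6 calcium genes, 3 of 5 energy genes and 1 of 3 regulatory genes. The 7 below 0.8 were Mb, Klhl41, Tnnt1, Pygm, Casq1, Mylk2 and Tcap.

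**Figure D1:**
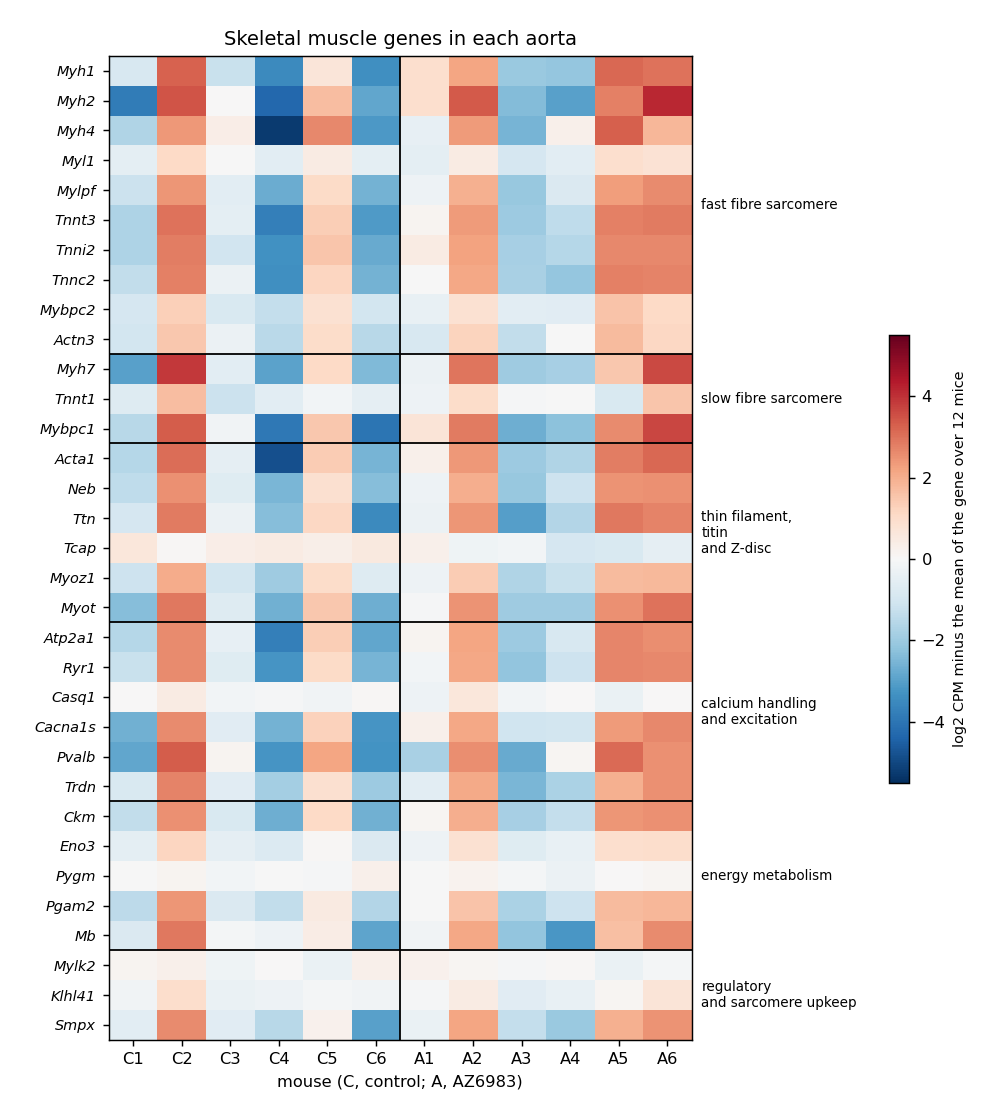
The colours give log2 CPM of each of 33 members (rows, by class) in each of 12 mice (columns) minus the gene's mean over the 12 mice, blue for lower and red for higher. Columns C2, C5, A2, A5 and A6 are red for most genes, while the rows of Tcap, Casq1, Pygm and Mylk2 stay near white.

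Myh1, which encodes myosin heavy chain IIx, drew the most counts per library of the fast genes (mean 40.9 CPM), and per kilobase of exon it had 6.44 CPM per kb against 13.6 for Tnnt3. Its level in C1 to C6 was 7.22, 130, 5.72, 1.12, 21.3 and 1.22 CPM, and in A1 to A6 it was 25.5, 61.6, 3.17, 3.06, 123 and 108 CPM. The same 4 mice that were high for Acta1 were high for Myh1, and the groups overlapped. Tnnt3, fast troponin T, was among the members closest to Acta1 (r = 0.99, rho = 0.99), with 0.521 CPM in C4 and 63.4 CPM in C2. Its partners in the troponin complex, Tnni2 (troponin I) and Tnnc2 (troponin C), had r of 0.98 and 0.99. Tnni2 ran from 0.298 to 26.4 CPM and Tnnc2 from 0.298 to 25.7 CPM, each lowest in C4 and highest in C2. Mylpf, the regulatory light chain of fast myosin (r = 0.97), ran from 0.558 CPM in C4 to 25.0 CPM in A6. The troponins and this light chain thus shared their lowest mouse. Tnni2 and Tnnt3 are neighbours on chromosome 7, at 142441808 to 142444410 and 142498836 to 142516009.

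The fast genes differed in how widely they ranged. Myl1, which encodes an essential light chain of fast myosin, ran from 10.7 CPM in A3 to 43.4 CPM in C2, a range of 4.04-fold, with 13.8 CPM in C4. A straight line through its CPM against that of Acta1 met 59.3% of the mean Myl1 level at an Acta1 level of 0. For Mybpc2 (fast myosin binding protein C) the line met 43.5% of the mean and for Actn3 (α-actinin-3, a Z-disc protein of fast fibres, 0.986 to 9.97 CPM) it met 39.3%. Myh4, myosin heavy chain IIb, ran from 0.260 CPM in C4 to 125 CPM in A5, 482-fold, and its line met 28.1% of its mean though C4 lay far below that, so the line need not give a floor. By their range, Myl1, Mybpc2 and Actn3 varied 4.04-fold, 7.55-fold and 10.1-fold.

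Myosin heavy chains are the usual markers of fibre type. Myh4 (IIb), Myh1 (IIx) and Myh2 (IIa, 0.260 to 117 CPM) lie side by side on chromosome 11, and Myh7, the slow β chain, lies on chromosome 14. The share of Myh7 among the counts of these 4 genes was 1.78% to 12% over the 12 mice. Most counts of these 4 genes were thus of fast types in every aorta. The smooth muscle myosin gene Myh11, not among the 4, had a mean of 6104 CPM. The fast type with the most counts differed among mice: Myh1 in C1, C2, C4, A1 and A3, Myh4 in C3, C5, C6, A4 and A5, and Myh2 in A2 and A6. These counts are not scaled to exon length, which is 7137 bases for Myh2, 6353 for Myh1 and 6016 for Myh4. Per kilobase of exon Myh2 did not lead in A2 or A6. There A6 had 17.1 CPM per kb of Myh1 against 16.4 of Myh2, and A2 had 10.8 of Myh4 against 9.68 of Myh2. In A2, A5 and C6 the leading share and the next lay within overlapping 95% Wilson intervals, so no leader could be told there from these counts.

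Between mice with clear leaders by counts the shares of a gene differed by more than counting error. In A4 Myh4 held 78.1% of the counts of the 4 genes (95% Wilson interval 75 to 80.9%), and in A6 it held 15.3% (14.6 to 16.1%). Mice C2 and C5, both controls with much muscle RNA, had 22.1% (21.2 to 23.1%) and 62.6% (61.0 to 64.1%) of Myh4. In C4, with 50 counts over the 4 genes, the interval of the Myh4 share ran from 6.95 to 26.2%. The intervals cover counting error only, and reads of near-identical myosin genes that aligned to several places are missing from the counts, so the split between neighbouring types is uncertain.

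**Figure D2:**
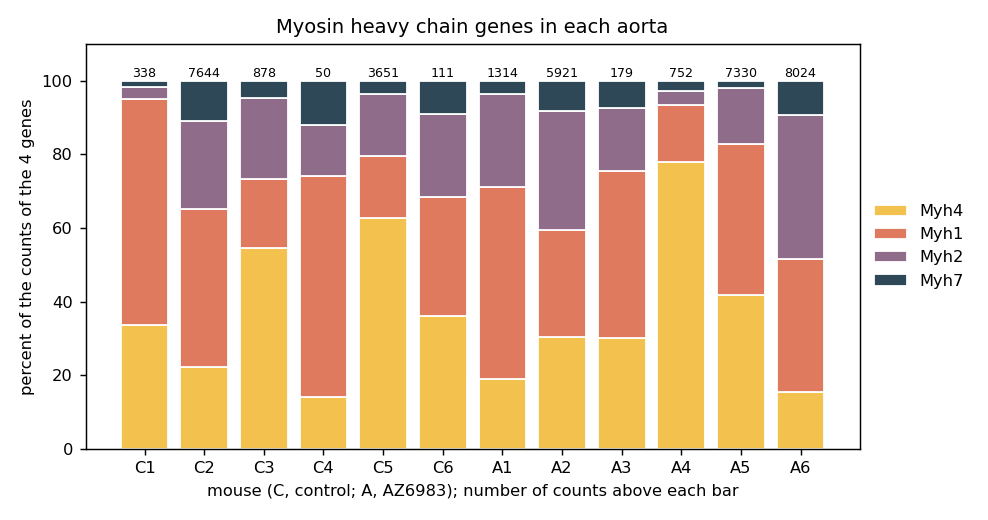
The bars split the counts of 4 myosin heavy chain genes in each of 12 mice into percent, with the number of counts above each bar. Myh4 makes up 78.1% in A4 and 14% in C4, and Myh7 is at most 12% in any mouse.

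Per kilobase of exon the 4 slow fibre genes had mean levels of 0.222 to 1.72 CPM per kb and the 10 fast genes 1.41 to 13.6 CPM per kb. Myh7 had 0.209, 33.4, 1.41, 0.223, 4.71 and 0.340 CPM in C1 to C6 and 1.75, 17.4, 0.510, 0.559, 6.17 and 27.6 CPM in A1 to A6. It followed Acta1 (r = 0.94), with C2, A2 and A6 above all others. Tnni1, the slow troponin I, had 0 counts in C1, where up to 3 counts cannot be told from none, and 6, 1, 16 and 13 counts in C3 to C6. It had 79 counts in C2, and 6, 55, 2, 5, 3 and 72 in A1 to A6, so that C2, A2 and A6 were again the high mice. Mybpc1, slow myosin binding protein C, which is also made in fast fibres, followed Acta1 as well (r = 0.98). It made up 60.7%, 60.4% and 69.8% of the counts of Mybpc1 and Mybpc2 in C2, A2 and A6, and 2.30% in C6.

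Mouse A5 had few counts of the slow troponins beside many of the fast genes. It had 3071 counts of Myh4 and 580 of Tnni2, among the highest of the 12 mice, but 3 of Tnni1 and 30 of Tnnt1, the slow troponin T. The slow gene made up 0.515% of troponin I counts in A5, against 10.6% in C2, 10.3% in A2 and 10.3% in A6. For troponin T the slow share was 2.18% in A5 against 10.6%, 10.1% and 10.3% in those mice. Myh7 was also lower in A5 than in C2, A2 and A6, with 6.17 CPM against 33.4, 17.4 and 27.6 CPM. Its share of the counts of the 4 myosin heavy chain genes was 2.06%, against 11.1%, 8.17% and 9.23%. Mybpc1 had 13.5 CPM in A5, against 22.6, 15.9 and 28.5 CPM. It made up 43.7% of the counts of Mybpc1 and Mybpc2 there, against 60.7%, 60.4% and 69.8%. Mice with much Acta1 thus differed in the shares of their slow genes. The comparison of A5 with the other 3 mice was chosen after the values were seen and rests on 1 mouse.

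Tnnt1 did not follow Acta1 (r = 0.59, rho = 0.42, adjusted over 32 members, permutation p = 0.0534 and 0.193). Its level was 1.36, 7.51, 0.965, 1.49, 2.05 and 1.6 CPM in C1 to C6, and 1.86, 4.53, 2.12, 2.23, 1.23 and 6.6 CPM in A1 to A6. In C4, where Tnnt3 had 14 counts, Tnnt1 had 40, so that the slow gene held 74.1% of troponin T counts there.

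Ttn, the gene of titin, has a summed exon length of 116825 bases and drew the most counts of the thin filament and Z-disc genes, with a mean of 2.92 CPM per kb. It had 68.5, 922, 105, 25.3, 280 and 11.3 CPM in C1 to C6, and 103, 695, 15.6, 42.2, 967 and 858 CPM in A1 to A6. It followed Acta1 (r = 0.94), as did Neb (nebulin, the ruler of the thin filament), Myoz1 (a Z-disc protein that binds calcineurin) and Myot (myotilin), with r of 0.95 to 0.97. Neb ran from 3.46 to 117 CPM, Myoz1 from 0.149 to 3.44 CPM and Myot from 0.068 to 6.97 CPM. The class thus moved as a block except for Tcap.

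Tcap was the member that departed furthest from Acta1. Its level in C1 to C6 was 52.7, 35.4, 43.4, 46.9, 42.1 and 49.9 CPM, and in A1 to A6 it was 41.7, 28.7, 30.6, 18.1, 18.9 and 24.4 CPM. Control mice were high and 5 of the 6 AZ6983 mice lay below the lowest control, C2, while A1 lay within the controls. The range over the 12 mice was 2.91-fold. Its r with Acta1 was -0.45 (permutation p = 0.145, adjusted 0.16, rho = -0.50), -0.29 without C4 and A6, -0.78 within the 6 controls (exact permutation p = 0.0639) and -0.12 within the 6 AZ6983 mice. C4, with the least Acta1, had 46.9 CPM of Tcap, and A5, with a high Acta1, had 18.9 CPM.

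Per kilobase of exon Tcap had the highest mean of the members, 38.0 CPM per kb, followed by Acta1 with 28.2. Over the mice the Tcap level per kilobase ran from 19.1 to 55.6, and that of Acta1 from 0.291 to 85.4. Tcap (chr11:98383811-98384953, plus strand, GRCm38) has an exon length of 948 bases, and no other annotated gene overlapped its exons on either strand. Its counts of 462 to 1511 per mouse leave little counting error.

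**Figure D3:**
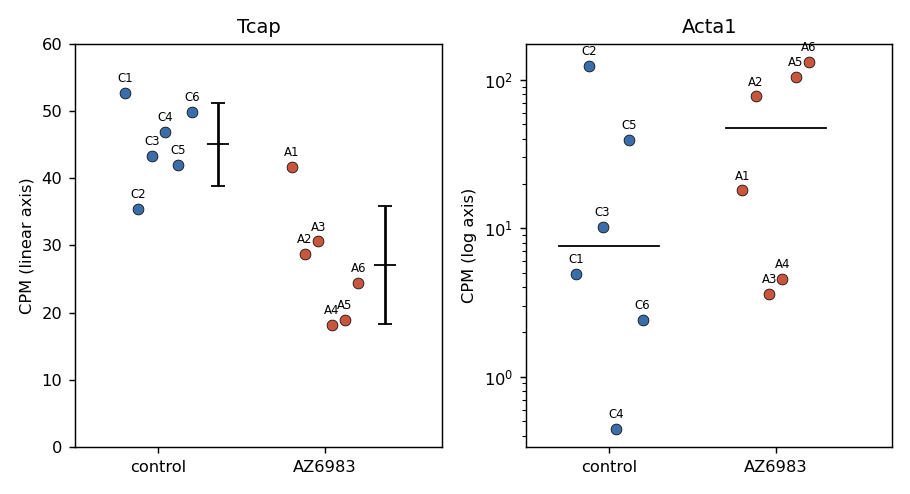
The points give the level of Tcap (left, CPM, linear axis, with mean ± SD of 6 mice) and Acta1 (right, CPM, log axis, with the median of 6 mice as a line) in each mouse. Tcap has a mean of 45.0 CPM among controls and 27.1 CPM among AZ6983 mice, while Acta1 spans 0.446 to 131 CPM.

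The calcium handling genes followed Acta1 in 5 of 6 cases. Atp2a1 had 2.86, 51.9, 6.21, 0.558, 21.9 and 1.12 CPM in C1 to C6 and 9.51, 38.3, 2.08, 4.58, 55.0 and 50.2 CPM in A1 to A6 (r = 0.99). Ryr1 (the ryanodine receptor), Cacna1s (the voltage sensor of excitation), Trdn (triadin, which joins the receptor to calsequestrin) and Pvalb (parvalbumin, the calcium buffer of fast fibres) had r of 0.91 to 0.99. Ryr1 ran from 0.372 CPM in C4 to 27.0 CPM in A5. Cacna1s, Trdn and Pvalb were at 4, 11 and 1 counts in C4 and at 201, 290 and 258 counts in C2.

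Casq1 was the exception of that class. It had 18.1, 24.4, 15.9, 17.1, 15.4 and 18.8 CPM in C1 to C6 and 14.9, 27.6, 16.0, 18.1, 14 and 17.9 CPM in A1 to A6. C2 and A2 were the highest mice, but A5 was the lowest, and the whole range was 1.97-fold (r = 0.24, rho = -0.03, permutation p = 0.455). The line against Acta1 met 93.2% of the mean Casq1 level at an Acta1 level of 0.

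In energy metabolism Pygm was the flattest of all 33 members. It had 39.8, 45.6, 36.8, 39.7, 39.0 and 49.6 CPM in C1 to C6 and 40.7, 46.5, 38.5, 32.3, 41.3 and 44.5 CPM in A1 to A6, a range of 1.54-fold (r = 0.34, permutation p = 0.282). Within the 6 AZ6983 mice its r with Acta1 was 0.80 (exact permutation p = 0.0403, not adjusted), and within the 6 controls it was 0.06. Ckm (muscle creatine kinase) and Pgam2 (muscle phosphoglycerate mutase) followed Acta1 with r of 0.98 and 0.93, from 1.38 to 54.0 CPM and from 0.274 to 6.13 CPM. Eno3, β-enolase, followed it too (r = 0.93) but ranged only 3.97-fold, with a line that met 53.5% of its mean at an Acta1 level of 0.

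Mb, the gene of the oxygen store myoglobin, stood just under the threshold (r = 0.798, rho = 0.89). It had 4.99, 64.6, 8.10, 7.14, 11.4 and 1.09 CPM in C1 to C6 and 7.54, 37.7, 1.88, 0.878, 27.8 and 52.5 CPM in A1 to A6. Mb was higher in C4 than in C6, A3 and A4, though Acta1 was lowest in C4. Without C4 and A6 its r was 0.95. The next member below was Klhl41 (r = 0.78), and the member just above the threshold was Myl1 (r = 0.88).

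The regulatory genes split. Mylk2, which encodes the skeletal myosin light chain kinase, had 7.78, 8.50, 5.83, 6.99, 5.30 and 8.47 CPM in C1 to C6 and 8.06, 7.41, 6.58, 7.34, 5.39 and 6.38 CPM in A1 to A6, a range of 1.6-fold (r = -0.25, permutation p = 0.438). Klhl41, a kelch protein that stabilises nebulin, ranged 3.08-fold, from 3.72 CPM in A3 to 11.5 CPM in C2. Smpx, a small protein of the costamere, followed Acta1 (r = 0.90) with 1 to 126 counts. Of the 3 genes, 1 followed Acta1, 1 was flat, and 1 lay between.

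**Figure D4:**
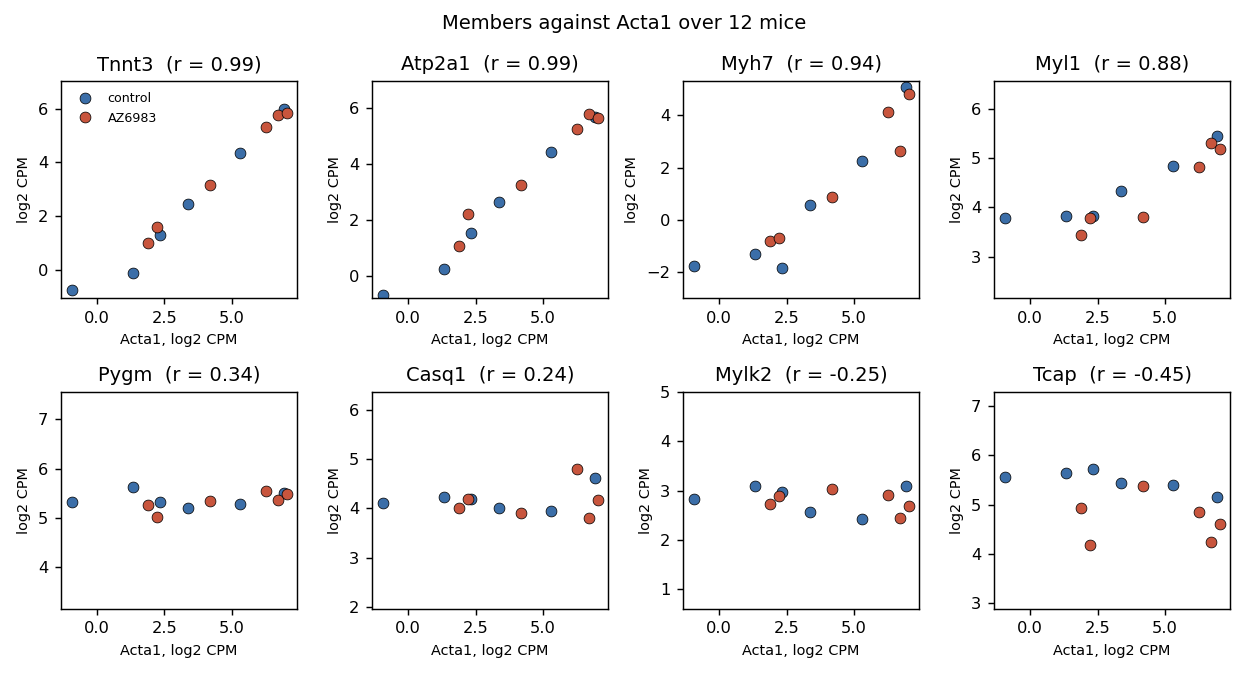
Each panel plots log2 CPM of a member against log2 CPM of Acta1 in 6 control and 6 AZ6983 mice, with Pearson's r over the 12. Tnnt3, Atp2a1 and Myh7 rise along with Acta1, Myl1 rises less steeply, Pygm, Casq1 and Mylk2 are flat, and the Tcap points of AZ6983 mice lie lower than most control points at any level of Acta1.

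AZ6983 mice were compared with controls to ask whether treatment changed any of these genes. In edgeR's quasi-likelihood test, with Benjamini-Hochberg adjustment over 15857 genes and a 10% false discovery rate, 0 of 33 members passed, and 0% of all genes did. By DESeq2, the study's tool, 1 of the members passed (Tcap), against 0.523% of all genes, and by limma-voom 0 did. At an unadjusted p under 0.05 in edgeR 1 member passed (Tcap), against 10.2% of all genes. The log2 fold change was above 0 for 29 of 33 members, against 52.4% of all genes, with a median of 0.65 and adjusted p of 0.447 to 0.979. The members share the muscle RNA of the same mice, so their directions are not separate observations. The 2 groups of 6 did not overlap for 0 of 33 members, against 0.41% of all genes.

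Mean Tcap was 45.0 CPM ± 6.17 (SD, n = 6) for the controls, against 27.1 CPM ± 8.74 (SD, n = 6) with AZ6983. The log2 fold change was -0.74 (SE 0.18, edgeR adjusted p = 0.447), which did not pass. DESeq2 gave -0.75 (SE 0.19, adjusted p = 0.0464), which did. The study lists Tcap among its changed genes, so its direction here is not independent evidence. In DESeq2 the call was lost when C1, C3, C4, C5 or A6 was left out, with adjusted p of up to 0.322, and was kept in the other 7 cases. With the share of reads with no feature as a covariate the edgeR value was -0.46 (adjusted p = 0.9998).

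Acta1 had a log2 fold change of 0.91 (SE 1.12, adjusted p = 0.779 in edgeR), and the 25 genes that followed it had the same sign, from 0.09 to 1.28, each with adjusted p of at least 0.711. Without control C2 the Acta1 value was 2.28 and without A6 it was 0.46. The SE of these 26 genes was 0.39 to 1.29, since muscle RNA varied so widely among mice of 1 group. The genes with the narrowest ranges had smaller errors. Pygm had -0.04 (SE 0.09), Mylk2 had -0.06 (SE 0.14) and Casq1 had -0.02 (SE 0.16), with edgeR adjusted p of 0.90, 0.90 and 0.979. Klhl41, with a wider range, had 0.04 (SE 0.28, adjusted p = 0.971).

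The share of reads with no feature moved with both Acta1 and Tcap. This share was 10.1% ± 1.55 (SD, n = 6) for the controls, against 12.8% ± 1.36 (SD, n = 6) with AZ6983. Over the 12 mice it had r of 0.66 with Acta1 (rho = 0.66, permutation p = 0.0193, adjusted 0.0193 over 2 genes) and of -0.73 with Tcap (rho = -0.82, p = 0.00778, adjusted 0.0156). Without the 2 mice farthest from the median of that share, C1 and A2, r was 0.67 and -0.76. Within controls r was 0.67 for Acta1 (exact permutation p = 0.133) and -0.87 for Tcap (p = 0.0278), and within AZ6983 mice 0.60 (p = 0.221) and -0.20 (p = 0.696). With this share in the edgeR model all 33 members had a log2 fold change below 0, against 46.2% of all genes in that fit, Acta1 among them at -1.10 (adjusted p = 0.9998). The share was itself higher with AZ6983, so this fit cannot fully separate it from treatment. The members were measured in the same mice, so their directions are not separate observations. The part of this measure in the differences was otherwise not tested.

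**Figure D5:**
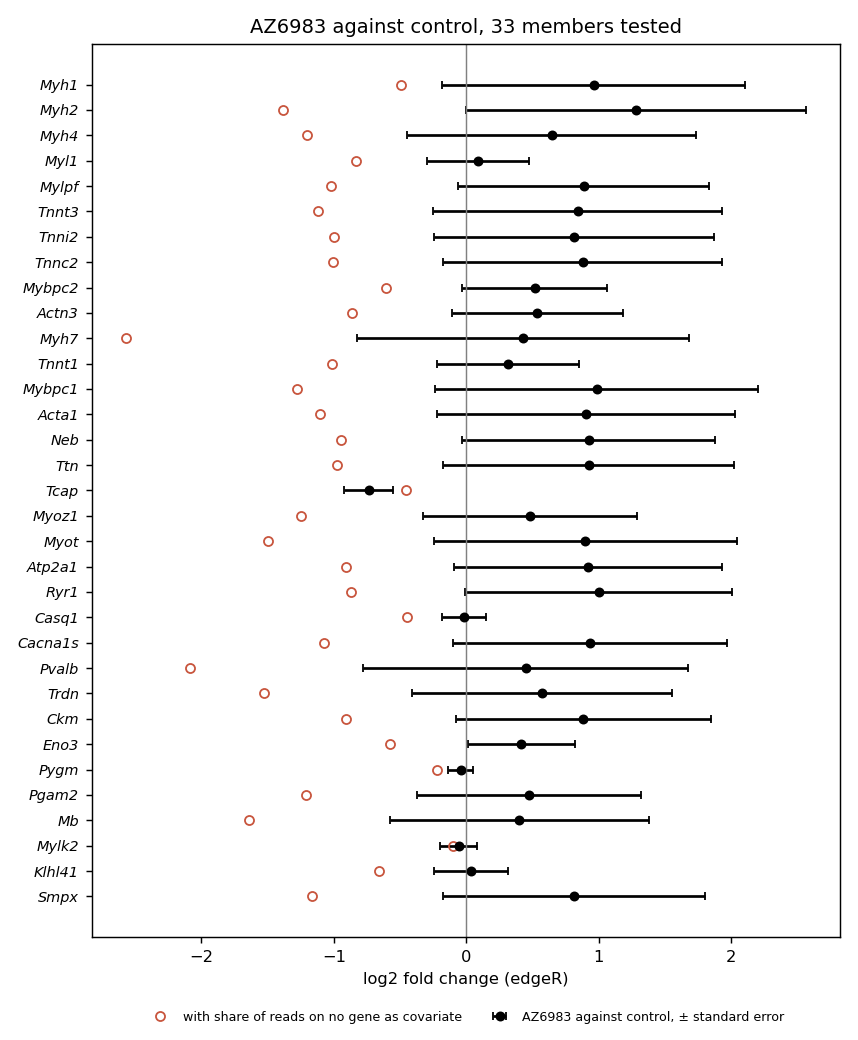
Filled points give the log2 fold change of AZ6983 against control in edgeR, with its standard error, for 33 members. Open points give the value with the share of reads with no feature as a covariate. Filled points lie above 0 for 29 members and open points lie below 0 for all 33, while Tcap is at -0.74 and -0.46.

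A list of 40 further skeletal muscle genes was set beside the members. Of these 27 passed the filter, and 0 were called in either direction by edgeR or DESeq2. In edgeR 0 of the 27 had an unadjusted p under 0.05, against 10.2% of all genes. The log2 fold change was above 0 for 20 of them, against 52.4% of all genes. Of these 27 genes 11 had r of at least 0.8 with Acta1, against 0.505% of all genes tested. Myom1 (myomesin), Jph2 (junctophilin), Fbxo32 (a ubiquitin ligase of muscle wasting) and Ldb3 (a Z-disc protein) had the highest mean levels. They were not among the 11, with r of 0.17, -0.29, -0.45 and -0.06. Of 18 regulators and markers of muscle formation 7 passed the filter, 0 were called by either tool, 0 had an unadjusted p under 0.05 in edgeR, and 0 followed Acta1. The summed level of this list was 380 to 508 CPM among controls and 380 to 464 CPM among AZ6983 mice, mostly of Mef2a, Mef2c and Mef2d, which are not particular to skeletal muscle.

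Several members are heart genes too. Of 18 cardiac genes 13 passed the filter, 0 were called by either tool and 0 had an unadjusted p under 0.05 in edgeR. Their summed level was 185 to 426 CPM among controls and 170 to 360 CPM among AZ6983 mice. Myh6, the α myosin heavy chain of heart, ran from 0.745 to 99.9 CPM and had r of 0.57 with Acta1. Mb had r of 0.84 with Myh6 (rho = 0.81, permutation p = 0.00101, adjusted 0.00606 over 6 members that heart also expresses), 0.77 without the 2 mice farthest from the median of Myh6. The values of Smpx, Trdn, Ttn, Myh7 and Tnnt1 were 0.79, 0.79, 0.76, 0.66 and 0.54, and without those 2 mice 0.75, 0.67, 0.65, 0.53 and 0.44. That of Tnnt1 had an adjusted permutation p of 0.072. Tcap was not among these 6, and its r with Myh6 was -0.17. The part of heart RNA in these members was not tested.

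Genes whose products bind titin-cap or that lie beside Tcap had r with it from -0.46 to 0.78. Of 20 such genes 11 passed the filter, 0 were called by either tool and 1 had an unadjusted p under 0.05 in edgeR. Stard3 and Ppp1r1b, which precede Tcap on the same strand of chromosome 11, had r with Tcap of 0.28 and 0.78, and Pgap3, which lies after it, had -0.21. The gene with an unadjusted p under 0.05 was Ppp1r1b, which encodes an inhibitor of protein phosphatase and had a log2 fold change of -0.64 (SE 0.26, edgeR adjusted p = 0.466). The titin-cap partners Ttn and Myoz1 had r of -0.42 and -0.38.

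The genes of the whole table most like Tcap over the 12 mice were 9830147E19Rik, Ephx1, Dirc2, Impad1 and Mgp, with r of 0.94, 0.93, 0.93, 0.93 and 0.93. With group means removed their r with Tcap was 0.85 to 0.89. Smooth muscle genes differed in their r with Tcap. Lmod1 (leiomodin) had 0.85, Mylk (the smooth muscle light chain kinase) 0.76, Tagln (transgelin) 0.64, Myh11 0.53 and Acta2 (smooth muscle actin) 0.48. Cnn1, Synpo2, Smtn and Actg2 had 0.38, 0.31, 0.25 and 0.18, while Mylk4, Myocd and Des had -0.06, -0.15 and -0.54. With group means removed Lmod1, Mylk, Tagln, Myh11 and Acta2 had 0.80, 0.80, 0.64, 0.74 and 0.62. By that measure Cnn1, Synpo2, Smtn and Actg2 had 0.52, 0.66, 0.54 and 0.30. Mylk4, Myocd and Des then had 0.30, -0.15 and -0.29. Fbxo32, of the further skeletal muscle genes, had r of 0.91 with Tcap over the 12 mice and 0.95 with group means removed. Of the 12 smooth muscle genes 0 were called by either tool, and 1 had an unadjusted p under 0.05 in edgeR, Lmod1 with a log2 fold change of -0.29 (SE 0.13, adjusted p = 0.487).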

How the data were processed

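The authors extracted RNA from the thoracic aorta of 12 mice, prepared stranded libraries after depletion of ribosomal RNA, sequenced paired ends and deposited raw counts per gene symbol. Per the labels' processing notes the tools were CASAVA 1.8.2, STAR 2.5.2b and HTSeq 0.6.1p1 with build mm10. The deposited table has 25284 genes, and its 3 rows that name no gene entered neither library sizes nor tests. Reads with no feature were 8.02% to 14.9% per mouse, reads aligned to several places 18.1% to 23.2% and ambiguous reads 0.606% to 0.698%. Counts on genes were 23810036 to 35864666 per mouse. Mice were grouped by sample title, and 11 of 12 columns matched a mouse number in full (the column of A1 held 3 of its 4 digits). Libraries of each pair differed beyond counting error (chi-square per degree of freedom 13.1 to 247 over 66 pairs). Library numbers in the column names, of unstated meaning, were 3 to 7 and 12 for controls, so that any order they stand for and treatment largely cannot be told apart.

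Differential expression used edgeR 4.0.16 in R 4.3.3 (TMM, filterByExpr, quasi-likelihood test, 10% FDR, 15857 genes tested), with DESeq2 1.42.0, limma-voom 3.58.1, other size factors, no filter, a covariate and each mouse left out as alternatives. Standard errors were obtained from the fold change and its F statistic. DESeq2 with each mouse left out, r without group means and r of at least 0.7 were chosen after seeing the data. So were relations to Myh6 and to the share of reads with no feature. Correlations used log2 CPM with a prior count of 2 and 100000 permutations, exact within groups of 6, two-sided, adjusted over 32 members. Positions and exon lengths came from GENCODE M21, matched by symbol for 34 of 34 members. Opposite-strand genes overlapped exons of 14 members and same-strand genes 0. Whether counting used strand is not given in the sources used here, so reads of those 14 and their opposite-strand partners may be mixed. Steps were tested on simulated data with 200 changed genes.

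The members and lists were chosen with earlier results of these data known. Named genes were Tcap, Acta1, the member with the highest mean CPM of each class, the 5 with the lowest r, members called by either tool, and the 5 other genes most like Tcap and Acta1. Of the genes most like Acta1, 1 is not reported here. Other genes described singly were chosen after their values were seen.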

Additional observations from a re-analysis of the deposited data

Results flagged for a closer look

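In 2 of the 66 groups of 6 mice examined (33 members in each group) the highest or lowest mouse stood apart from the others by Dixon's criterion, and chance alone gives 3.3. Both were control mouse C2. Its Tnnt1 level was 2.92 log2 CPM against 0.05 to 1.08 in the other 5 controls, and its Klhl41 level was 3.53 log2 CPM against 2.18 to 2.46. C2 also had the highest level of 18 of the 34 members over the 12 mice.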

How the results depend on the processing

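Of 527 alternative values of 31 single members, 476 kept the direction and side of the threshold and 51 had the opposite direction, over 30 of the members. Tcap and Acta1 are not among the 31. Mylk2 kept its direction in every alternative run, and so did Tcap. The share of reads with no feature as a covariate turned 29 members: Acta1 to -1.10, and the others to -0.49 (Myh1), -1.39 (Myh2), -1.20 (Myh4), -0.83 (Myl1), -1.02 (Mylpf), -1.12 (Tnnt3), -1.0 (Tnni2), -1.01 (Tnnc2), -0.61 (Mybpc2), -0.86 (Actn3), -2.57 (Myh7), -1.02 (Tnnt1), -1.28 (Mybpc1), -0.94 (Neb), -0.97 (Ttn), -1.25 (Myoz1), -1.50 (Myot), -0.91 (Atp2a1), -0.87 (Ryr1), -1.08 (Cacna1s), -2.09 (Pvalb), -1.53 (Trdn), -0.91 (Ckm), -0.57 (Eno3), -1.21 (Pgam2), -1.64 (Mb), -0.66 (Klhl41), -1.16 (Smpx). The number of members with a log2 fold change below 0 was then 33 in place of 4. The adjusted p of these values was 0.9998 and the cause was not tested. Leaving out 1 mouse at a time turned members near 0 (range of log2 fold changes): Casq1 -0.19 to 0.067, Klhl41 -0.13 to 0.30, Mb -0.10 to 1.69, Myh4 -0.039 to 1.29, Myh7 -0.35 to 2.68, Myl1 -0.13 to 0.37, Pvalb -0.033 to 1.64, Pygm -0.10 to 0.018, Tnnt1 -0.055 to 1.04. The number of members below 0 was 3 without control C2 and 9 without A6.

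DESeq2 called 1 member, Tcap, at -0.75. With each mouse left out Tcap was -0.91 to -0.65 over edgeR and DESeq2, with adjusted p of 0.187 to 0.719 in edgeR (0 of 12 past 10%) and 2.93e-05 to 0.322 in DESeq2 (7 of 12 past 10%), and 0 or 1 members were called. In DESeq2 it was -0.81 without C2, -0.72 without C6, -0.91 without A1, -0.77 without A2, -0.78 without A3, -0.65 without A4 and -0.66 without A5, and each of these passed. Acta1 was 0.46 to 2.28. The number of followers of Acta1 was 25 to 27 with each mouse left out. It stayed within 1.5 times the reported count under other size factors, prior count 0.5, Spearman's rho, each group alone, no group means and r of at least 0.7. No paired analysis was possible because the labels give mouse numbers that no 2 mice share. Members with few counts, such as Tnni1 (0 to 79) and Pvalb (1 to 258), are limited by depth in mice with little muscle RNA, whereas Tcap and Pygm are not.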

Other observations

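Among the genes outside the members that were most like Acta1 over the 12 mice were Xirp2 (a protein of muscle cell junctions, r = 0.96), H19 (an imprinted noncoding RNA, r = 0.93), Smtnl1 (r = 0.93) and Myl3 (a slow and ventricular myosin light chain, r = 0.93). With group means removed the r of these 4 was 0.92 to 0.96.

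RNA of other tissues near the aorta varied among mice as well. The 13 brown fat genes summed to 3068 to 4965 CPM in controls and 2732 to 6469 CPM in AZ6983 mice, the highest in A5. The 9 white fat genes with a row summed to 4024 to 8650 and 5660 to 10198 CPM. The 10 thymocyte genes summed to 2.64 to 31.7 CPM in controls and 7.12 to 1174 CPM in AZ6983 mice, the highest in A4. The 9 cartilage genes summed to 91.2 to 161 and 77.7 to 158 CPM, and the 10 peripheral nerve genes to 209 to 460 and 215 to 344 CPM. By DESeq2 2 cartilage genes and 1 nerve gene were called, all lower in AZ6983 mice, against 0.523% of all genes called. The study lists Col2a1, Clec3a and S100b as lower, so such calls are not independent evidence. These lists were not compared with the muscle members by a test.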
